A study of Homo sapiens and Mus musculus with 69 samples.

Results

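COR-L88 cells kept on the LSD1 inhibitor TAS1440 were compared with COR-L88 cells kept on TAS1440 together with a gamma-secretase inhibitor (GSI), and RNA was measured by bulk RNA-Seq. The comparison takes the 6 libraries that the labels name CORL88_TAS1440 (libraries 13, 14 and 15) and CORL88_TAS1440_GSI (libraries 16, 17 and 18), of 69 libraries in the series and 15 of COR-L88. COR-L88 is a human small cell lung cancer (SCLC) line with neuroendocrine features. Per the study's methods, TAS1440, a reversible inhibitor of the histone demethylase LSD1, was given at 100 nM for 28 days, and the GSI of the COR-L88 cultures was BMS-708163 at 2 μM. The question was which parts of the long-term response to LSD1 inhibition need cleavage of Notch receptors. The 3 COR-L88 libraries with the vehicle DMSO show where each gene lay without either drug, and 6 libraries of STING_KO COR-L88 cells, which are single-cell clones, with DMSO or TAS1440 are used for side-by-side values only. None of the 69 libraries is labelled as cells given a GSI without TAS1440, so effects of the GSI that do not involve TAS1440 cannot be told apart from the rest. The labels do not say whether the 3 libraries of a group came from separate cultures, and *P* values measure only the spread between these libraries, which may be technical.

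Notch receptors sit at the cell surface and are cut in turn by ADAM10 and by gamma-secretase, a protease complex of the cell membrane, after a ligand on a neighboring cell has bound. The released intracellular domain joins RBPJ and a Mastermind-like protein (MAML) on DNA and switches on genes such as *HES1*, a repressor of neuroendocrine differentiation. In neuroendocrine SCLC, Notch is mostly silent and LSD1 helps to keep it so, and Notch activation turns neuroendocrine cells toward a non-neuroendocrine, mesenchymal state. Gamma-secretase also cuts many other membrane proteins, and therefore a GSI is not an inhibitor of Notch alone.

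All values are log2(RPKM + 1), written here as log2 values, and differences are TAS1440 plus GSI minus TAS1440 on that scale, where changes between low values come out too small. Because the gene lengths behind the RPKM values are not given, levels are compared within a gene and not between genes. Of 20516 genes, 13134 reached a log2 value of 1 in 3 or more COR-L88 libraries and were tested with limma. A gene high only in the TAS1440 libraries passes this filter and can then only come out lower with the GSI. Likewise, a gene high only with TAS1440 plus GSI can only come out higher. Counts of called list members include such genes and are descriptions only. A gene was called where its adjusted *P* was under 0.05 and the group means differed by 1 or more. A gene that was not called can therefore still have an adjusted *P* under 0.05. The labelled cell type was checked against 7 SCLC neuroendocrine markers, whose summed RPKM was 767 to 854 in the DMSO libraries, 16.4 to 29.5 with TAS1440 and 294 to 352 with TAS1440 plus GSI. Of 9 leukocyte markers, 4 were at 0 in every TAS1440 library and 5 in every TAS1440 plus GSI library, and the summed RPKM was 2.89 to 5.88 and 2.21 to 3.86. Of the defining ones, *CD3E* was at 0 in all 6 libraries and *PTPRC* was at most 0.04. Endothelial markers summed to 3.19 to 16.4 and 3.93 to 7.33 and fibroblast markers to 4.89 to 10.1 and 2.01 to 5.38, with *CDH5* at 0 in the TAS1440 plus GSI libraries. Among these lists *CD68* and *KDR* were called lower and *CLDN5* higher with the GSI, and the part of such cells in the results was not tested. Relative library size was 0.735 to 1.24 times the median human library with TAS1440 and 1.07 to 1.16 with TAS1440 plus GSI. In bulk RNA, fewer cells of a type and less RNA per cell cannot be told apart.

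Addition of the GSI lowered more genes than it raised. Of the tested genes, 1935 (14.7%) were called, with 1367 (10.4%) lower and 568 (4.32%) higher with TAS1440 plus GSI, and the median fold change of all tested genes was -0.04. Groups without overlap are common at this sample size and were seen for 60.1% of tested genes without any test. Counts of list members at an unadjusted *P* under 0.05 are given below without the share of all tested genes at that cut. They describe the members only and were not compared with that share. The largest falls were those of *TGFBI*, an adhesion protein of the extracellular matrix, and *HLA-B*, an MHC class I heavy chain, and the largest rises those of *RNF186*, an intestinal E3 ubiquitin ligase, and *DBH*, the enzyme that makes noradrenaline. The share of lower genes among the called depended on scaling: it was 70.6% as deposited, 58.8% when libraries were centred on their medians (1129 lower, 792 higher) and 60.0% after quantile normalization (1183 lower, 788 higher). Library medians were 3.44 to 3.50 with TAS1440 and 3.34 to 3.35 with TAS1440 plus GSI, and centring moved the median fold change of all genes from -0.04 to 0.09.

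**Figure D1:**
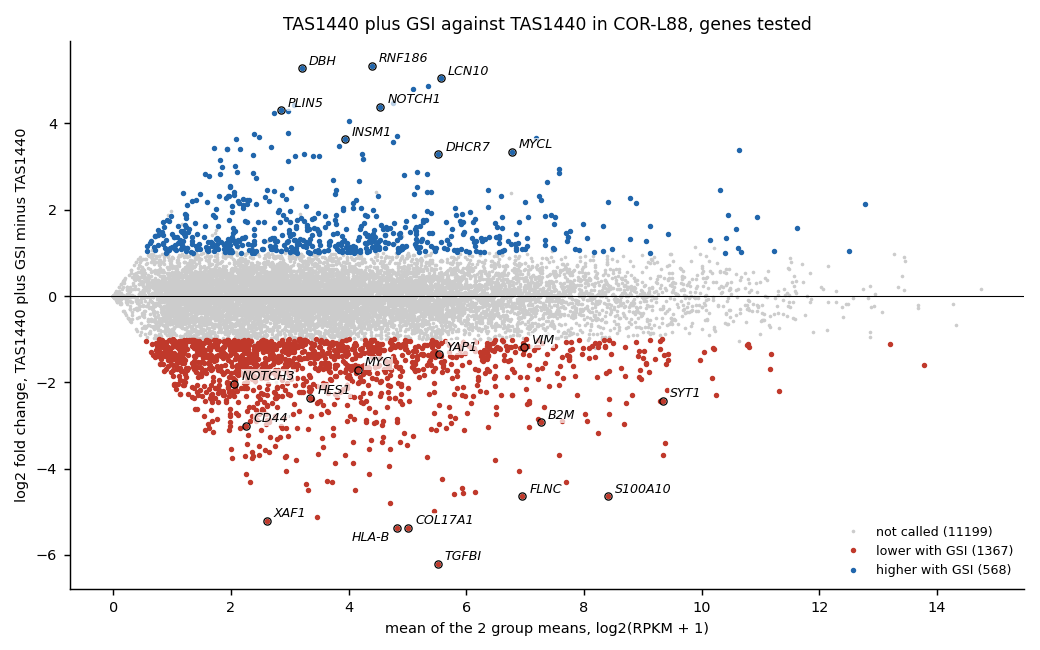
Each point is a tested gene, with the mean of both group means in log2(RPKM + 1) on the x axis and the log2 fold change of TAS1440 plus GSI against TAS1440 on the y axis. Red points are the 1367 genes called lower and blue points the 568 called higher with the GSI, and *TGFBI* and *HLA-B* lie lowest while *RNF186* and *DBH* lie highest.

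*NOTCH1* (chr9:139388885-139440500, GRCh37, minus strand) was among the genes that rose most with the GSI. Its log2 values were 1.99, 2.79 and 2.26 with TAS1440 and 6.73, 6.71 and 6.75 with TAS1440 plus GSI, against 0.61 to 0.74 with DMSO. All TAS1440 plus GSI libraries were above all others, and the difference of 4.39 (SE 0.388, adjusted *P* = 3.23e-06) concerns the transcript and not the cleaved receptor, which RNA does not measure. *NOTCH3* went the other way, from 2.71, 3.37 and 3.15 with TAS1440 to 1.14, 1.01 and 0.97 with TAS1440 plus GSI (-2.03, SE 0.229, adjusted *P* = 1.55e-05), near its DMSO values of 0.59 to 0.77. *NOTCH2* had 3.79, 4.89 and 4.23 with TAS1440 and 4.56, 4.33 and 4.35 with TAS1440 plus GSI. These overlap, with a difference of 0.11 (SE 0.211, adjusted *P* = 0.698), and both groups were above the DMSO libraries (1.65 to 2.04). *NOTCH4* was too low to be tested. The 3 tested receptors therefore had 3 patterns, since 1 was higher, 1 lower and 1 not called.

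Ligands of the Delta family, several of which neuroendocrine SCLC cells express, were higher with the GSI. *DLL4* had 1.60, 2.27 and 1.59 with TAS1440 and 4.54, 3.75 and 3.91 with TAS1440 plus GSI (2.25, SE 0.394, adjusted *P* = 0.000448), below its DMSO mean of 5.84. *DLL3*, an inhibitory ligand and a surface target of SCLC therapy, rose from 2.34, 1.94 and 1.77 to 3.87, 3.90 and 4.19, below its DMSO values of 4.89 to 5.15. *DLL1* rose by 1.63, with 3.01, 3.50 and 3.70 under TAS1440 and 5.06, 5.03 and 5.00 under TAS1440 plus GSI, and its DMSO mean was 4.53. *JAG1*, a ligand that is itself induced by Notch in many cells, fell from 4.43, 4.20 and 4.17 to 2.92, 2.45 and 2.44 (-1.66), below all DMSO libraries (3.57 to 4.07). Of 6 tested ligands, 3 were higher, 1 was lower and 2 (*JAG2*, 0.84, and *DLK2*) were not called.

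None of 5 subunits of gamma-secretase was called, because every difference was under 1 in size, although 3 were lower and 1 higher at an unadjusted *P* under 0.05. The adjusted *P* of limma was 0.00265 for *NCSTN*, 0.0169 for *PSEN2*, 0.0263 for *APH1B*, 0.0463 for *PSENEN* and 0.199 for *APH1A*. The catalytic subunit *PSEN2* had a difference of -0.49, the scaffold *NCSTN* -0.67, *APH1A* -0.26, *APH1B* 0.43 and *PSENEN* -0.44. Of 20 tested genes of receptor processing and of the nuclear complex, 4 were called, and the median was -0.40. *LFNG*, a glycosyltransferase that alters which ligands a Notch receptor answers to, rose from 2.02, 2.79 and 2.95 to 6.23, 5.52 and 5.88 (3.29), with a DMSO mean of 5.23. The coactivators of the Mastermind family split, with *MAML3* higher (1.24) and *MAML2* lower (-1.53), and *NUMBL*, an adaptor that opposes Notch, was lower (-1.22). *RBPJ*, the DNA-binding partner of the intracellular domain, was 3.58 and 4.04 on average (0.45, not called).

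**Figure D2:**
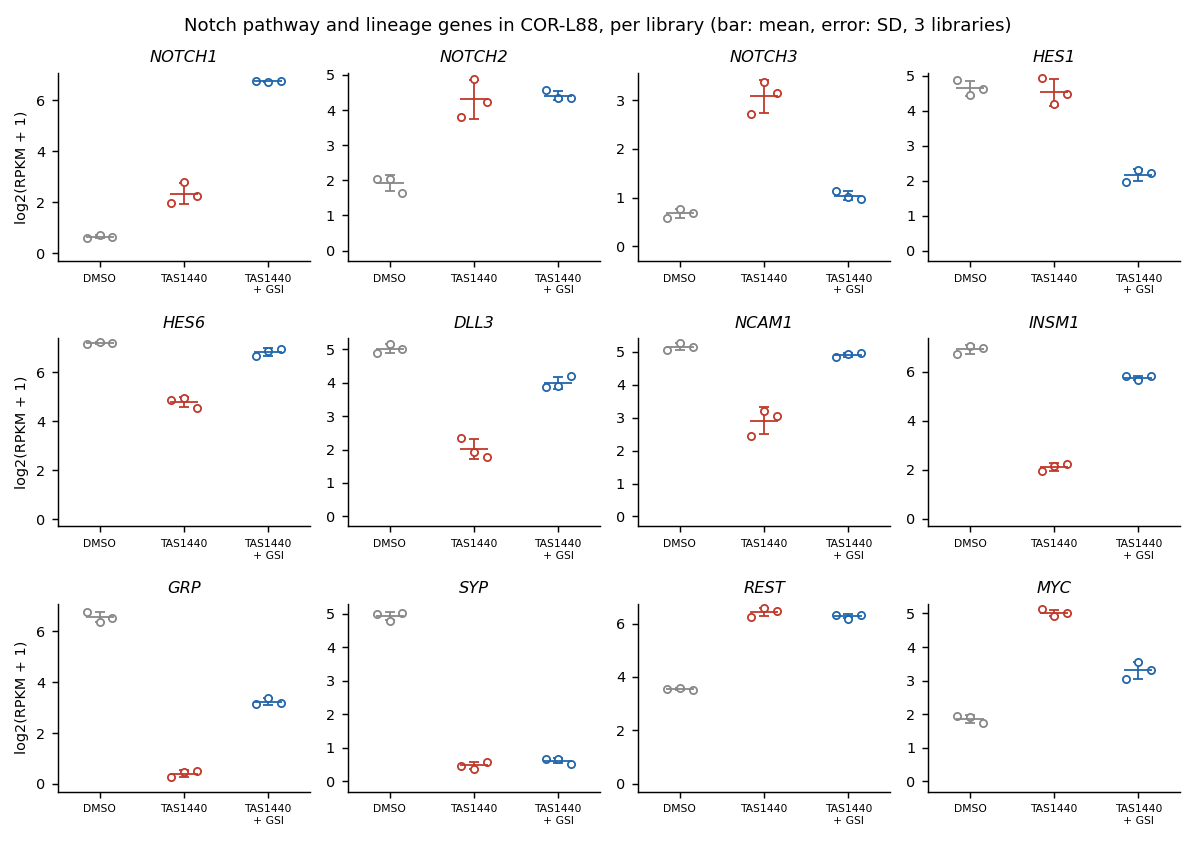
Each panel shows 1 gene in the 3 DMSO, 3 TAS1440 and 3 TAS1440 plus GSI libraries of COR-L88 (open circles) with the mean and SD, on a y axis of log2(RPKM + 1). *NOTCH1* is highest with TAS1440 plus GSI, *NOTCH3* and *HES1* are lower there than with TAS1440, *NCAM1* and *INSM1* lie nearer to their DMSO values than to their TAS1440 values, and *SYP* and *REST* stay at the values they have with TAS1440.

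*HES1*, the classical target gene of Notch (chr3:193853937-193856521, GRCh37, plus strand), fell with the GSI. Its values were 4.93, 4.18 and 4.47 with TAS1440 and 1.97, 2.30 and 2.23 with TAS1440 plus GSI, a difference of -2.36 (SE 0.242, adjusted *P* = 7.90e-06). The DMSO libraries had 4.87, 4.44 and 4.63 and overlapped the TAS1440 libraries, and the TAS1440 plus GSI libraries were below both. *HES4*, a related repressor, fell from 3.33, 2.65 and 2.38 to 1.78, 1.60 and 1.76 (-1.07, adjusted *P* = 0.000825), and the call was lost without library 13 (-0.80), after quantile normalization (-0.94) and with median-centred libraries (-0.94). *HES6*, which antagonizes HES1 and is expressed in neural precursors, rose from 4.87, 4.94 and 4.54 to 6.67, 6.86 and 6.96 (2.04, adjusted *P* = 7.68e-06). The 250 bases upstream of the gene start are shown for the pair of HES genes that fell, in RefSeq sequence of GRCh38.p14, because Notch acts on such promoters through RBPJ. Capitals mark the core motif of RBPJ, TGGGAA or its reverse complement TTCCCA.
HES1 promoter, chr3:194135898-194136147, plus strand: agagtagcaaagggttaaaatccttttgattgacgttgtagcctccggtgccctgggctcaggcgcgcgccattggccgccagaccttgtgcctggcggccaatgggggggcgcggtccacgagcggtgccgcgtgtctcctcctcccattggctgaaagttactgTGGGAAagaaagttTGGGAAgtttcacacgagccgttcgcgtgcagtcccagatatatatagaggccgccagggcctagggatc
HES4 promoter, chr1:1000098-1000347, minus strand: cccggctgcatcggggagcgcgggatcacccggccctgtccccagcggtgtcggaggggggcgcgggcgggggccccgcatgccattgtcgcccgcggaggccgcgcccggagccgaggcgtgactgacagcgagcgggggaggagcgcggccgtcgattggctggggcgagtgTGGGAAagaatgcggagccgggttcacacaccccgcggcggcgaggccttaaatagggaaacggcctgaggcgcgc
The *HES1* window held the motif at 84 and 70 bases before the gene start and the *HES4* window at 76 bases before it. At least 1 match was found in 21.1% of 27305 promoters of this length, in 19.4% of 9846 promoters of tested genes, 2 or more in 2.92%, and at least 1 in 6 of the 14 Notch target genes with a promoter in the table (42.9%). Among genes lower with the GSI 16.8% of 1019 promoters held it and among genes higher with the GSI 14.4% of 381. A match is a run of letters and not evidence of binding.

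Of 13 tested target genes of Notch, the HES genes included, 5 were lower and 2 higher with the GSI, with a median of -0.23, and 6 were not called. *MYC*, a growth regulator that Notch drives in leukemia, had 5.12, 4.93 and 5.00 with TAS1440 and 3.06, 3.54 and 3.30 with TAS1440 plus GSI (-1.72, adjusted *P* = 0.000745), still above DMSO (1.72 to 1.95). *BHLHE40* fell from 2.70, 2.19 and 2.49 to 0.71, 1.20 and 1.15 (-1.44), and *CCND1*, cyclin D1, had a difference of -1.10 that was no longer called without library 13 (-0.90) or 17 (-0.95) or in libraries scaled by quantiles (-0.99) or medians (-0.97). *SOX9*, a progenitor factor, was higher (1.01), though not called without library 15 (0.82), 16 (0.93) or 18 (0.90). The HEY genes and *NRARP*, a feedback inhibitor of Notch, were not called: *HEY1* had -0.35, *HEYL* -0.23, *HEY2* 0.14 and *NRARP* 0.02. Groups of each of these 4 genes overlapped.

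*INSM1*, a zinc finger factor of neuroendocrine cells (chr20:20348748-20351593, GRCh37, plus strand), was nearer to its DMSO level than to its TAS1440 level when the GSI was present. It had 6.71, 7.06 and 6.97 with DMSO, 1.95, 2.16 and 2.26 with TAS1440 and 5.80, 5.66 and 5.80 with TAS1440 plus GSI. The rise of 3.63 (SE 0.245, adjusted *P* = 5.84e-07) left every TAS1440 plus GSI library above every TAS1440 library and below every DMSO library. *MYCL*, a MYC family gene often expressed in neuroendocrine SCLC and outside the lists (chosen after its values were seen), rose from 4.52, 5.39 and 5.41 to 8.28, 8.39 and 8.66 (3.33), where DMSO libraries had 7.68 to 8.22.

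Other neuroendocrine genes fell into a group that rose and a group that did not. *GRP*, the growth factor gastrin-releasing peptide, went from 0.26, 0.47 and 0.49 to 3.13, 3.38 and 3.17 (2.82), against 6.38 to 6.77 with DMSO. The adhesion molecule *NCAM1* (CD56) rose from 2.46, 3.22 and 3.06 to 4.84, 4.93 and 4.96 (2.00), and *BEX1* by 1.01. By contrast *SYP*, synaptophysin of synaptic vesicles, had 0.46, 0.38 and 0.59 with TAS1440 and 0.69, 0.66 and 0.53 with TAS1440 plus GSI (0.14, adjusted *P* = 0.384), far below 4.80 to 5.03 with DMSO. *CHGA*, the granule protein chromogranin A, was 1.33, 1.27 and 0.77 and then 0.52, 0.22 and 0.39 (-0.75, not called), with 4.60 to 4.84 in the DMSO libraries. *SCG2*, another granin, had 0.56, 0.86 and 0.92 and then 0.64, 0.86 and 0.73, against 5.39 to 5.84 with DMSO. *SYP*, *CHGA* and *SCG2* were thus low in the same libraries in which *INSM1* and *NCAM1* were higher. The prohormone convertases *PCSK1* (-1.85) and *PCSK2* (-1.43) and the vesicle calcium sensor *SYT1* (-2.43) were lower with the GSI. Their positions against DMSO differed. *PCSK1* averaged 3.20 under TAS1440 alone and 1.35 when the GSI was present, both far below its DMSO mean of 7.85. The mean of *PCSK2* fell from 9.72 to 8.29, near its DMSO mean of 8.20. That of *SYT1* fell from 10.55 to 8.12, below its DMSO mean of 9.86. Of 26 tested neuroendocrine genes, 6 were higher and 3 lower, with a median of 0.08, and *NEUROD1*, the factor of another SCLC subtype, was not called (-0.80, adjusted *P* = 0.0175).

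*REST* encodes the repressor that keeps neuronal genes off outside neurons. Its values were 6.25, 6.57 and 6.48 with TAS1440 and 6.31, 6.19 and 6.32 with TAS1440 plus GSI, all above 3.52 to 3.57 with DMSO. The groups overlapped, and the difference was -0.16 (SE 0.231, adjusted *P* = 0.605). *KDM1A*, which encodes LSD1 itself, was higher with the GSI (4.24, 4.35 and 4.47 against 5.42, 5.43 and 5.38, 1.06) and so was the corepressor *RCOR2* (1.33). With DMSO the means of *KDM1A* and *RCOR2* were 5.32 and 2.66, near those with TAS1440 plus GSI (5.41 and 2.62). *CTBP2* was lower (-1.08) but lost the call without library 15 (-0.9996) and after quantile normalization (-0.97) or median-centring (-0.94). Of 16 tested genes of the REST and LSD1 complexes, 13 were not called. Neuronal genes of the type REST represses had a median of -0.08, with 4 of 33 higher and 5 lower. Sodium channel genes rose, *SCN2A* by 2.46 and *SCN3A* by 2.13. *SYT4*, a synaptotagmin, was at 9.67 to 10.35 with DMSO, 0.35 to 0.42 with TAS1440 and listed at 0 in all TAS1440 plus GSI libraries, and the adhesion molecule *L1CAM* fell from 2.29 to 0.53 on average (-1.76). *CPLX1* (-1.43), *MAPK8IP2* (-1.22) and *SYT7* (-1.12, not called with median-centred libraries, -0.99) were lower too. Calls of *DISP2* (-1.07) and *CDK5R1* (1.03) were lost without library 18 (-0.86 and 0.89) and, in turn, without library 16 (-0.97) and library 14 (0.98), and that of *DISP2* also after quantile normalization (-0.95) or median-centring (-0.94).

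**Figure D3:**
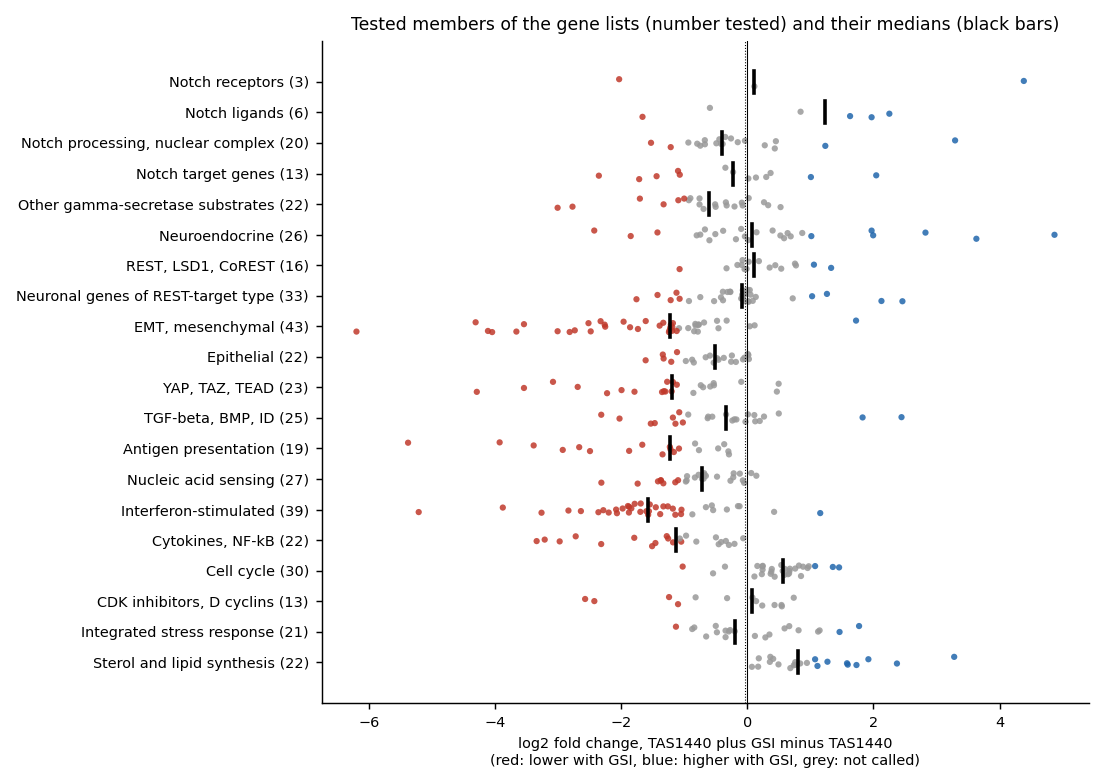
Each point is the log2 fold change of 1 tested gene in 1 list, TAS1440 plus GSI minus TAS1440, in red or blue where the gene was called lower or higher. Black bars are list medians and the dotted line is the median of all tested genes (-0.04), and the lowest median is that of the interferon-stimulated genes (-1.57) and the highest that of the 6 ligands (1.24).

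Mesenchymal genes were lower with the GSI in most cases. Of 43 tested, 28 were lower and 1 higher, with a median of -1.24 beside -0.04 for all genes. Members such as *ANXA1*, *CD44* and *ITGA5* had means under 1 with DMSO and with TAS1440 plus GSI. Such members passed the filter through other libraries and could hardly come out higher, which limits what the count shows. *TGFBI* (chr5:135364677-135399507, GRCh37) went from 7.97, 8.93 and 8.95 with TAS1440 to 3.22, 2.14 and 1.88 (-6.20, SE 0.614, adjusted *P* = 6.28e-06), within the DMSO range of 1.77 to 3.05 apart from 1 library. *ANXA1*, a phospholipid-binding protein of non-neuroendocrine cells, fell from 4.98, 4.15 and 4.32 to 0.05, 0.27 and 0.20 (-4.31). The integrin *ITGA2* (-4.12) and the calcium-binding protein *S100A6* (-4.05) fell by similar amounts. *FN1*, fibronectin, was 8.13, 8.66 and 8.15 and then 5.94, 5.99 and 5.56 (-2.49), above 3.46 to 4.63 with DMSO. *VIM*, the intermediate filament vimentin, was 7.32, 7.70 and 7.70 and then 6.67, 6.24 and 6.24 (-1.19). The receptor tyrosine kinase *AXL* was too low to be tested, at 1.02, 2.82 and 0.82 against 0.53, 0.11 and 0.33. The hyaluronan receptor *CD44* had 3.87, 4.79 and 2.65 with TAS1440 and 1.38, 0.66 and 0.25 with TAS1440 plus GSI (-3.01, SE 0.393, adjusted *P* = 4.62e-05), and the DMSO libraries had 0.00 to 0.14. The single member that was higher was *SNAI1*, a repressor of *CDH1* and an inducer of EMT, with 4.57, 4.49 and 4.14 against 6.23, 5.78 and 6.36 (1.72) and 5.88 to 6.50 with DMSO. Of other EMT transcription factors, *SNAI2* and *TWIST1* did not pass the filter, and *ZEB1* was 1.36 and 1.47 on average (0.11, not called).

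Epithelial genes were not called higher in the libraries in which mesenchymal genes were lower. Of 22 tested, limma called none higher and 5 lower, with a median of -0.51, and at an unadjusted *P* under 0.05 none was higher and 14 were lower. The share of all tested genes at that unadjusted cut was not counted. E-cadherin, *CDH1*, had 6.53, 6.79 and 6.63 with TAS1440 and 5.48, 5.28 and 5.20 with TAS1440 plus GSI (-1.33, SE 0.138, adjusted *P* = 8.55e-06), and 4.98 to 5.28 with DMSO. The membrane protease *PRSS8* (-1.61), the keratin *KRT7* (-1.34), *CDH3* (-1.21) and *ST14* (-1.12, not called with median-centred libraries, -0.98) were lower too. *EPCAM*, a surface marker of epithelial cells, was 8.51, 8.19 and 8.25 against 8.07, 8.04 and 8.06 (-0.26, not called).

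YAP and TAZ are coactivators that bind TEAD factors and drive matrix and adhesion genes, and YAP1 is absent from most neuroendocrine SCLC. *YAP1* had 6.20, 6.24 and 6.20 with TAS1440 and 4.98, 4.85 and 4.75 with TAS1440 plus GSI (-1.35, SE 0.144, adjusted *P* = 1.00e-05), and 0.86 to 1.36 with DMSO. *WWTR1*, which encodes TAZ, fell from 4.73, 5.04 and 5.14 to 2.70, 2.86 and 2.67 (-2.23). Both remained above every DMSO library. Among their target genes, *F3*, tissue factor, had 6.64, 5.60 and 5.10 and then 1.41, 1.88 and 1.17 (-4.29), and *ANKRD1* 6.91, 7.11 and 6.80 and then 3.74, 4.43 and 3.40 (-3.08). *NT5E*, the ectoenzyme CD73 (-3.54), and *MYOF*, a membrane repair protein (-2.69), were lower as well. Of 23 tested genes of this pathway, limma called 14 lower and none higher, with a median of -1.20 (20 lower and 1 higher at an unadjusted *P* under 0.05). Of 25 tested genes of TGF-beta and BMP signaling, 8 were lower, among them the decoy receptor *BAMBI* (-2.32), *BMP4* (-2.03) and *TGFBR2* (-1.53), and 2 higher, with a median of -0.34. The higher genes were *ID2*, an inhibitor of basic helix-loop-helix factors (4.74, 5.14 and 5.58 against 7.72, 7.59 and 7.49, 2.44), and *SMAD9* (1.83).

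MHC class I and its peptide-loading genes were lower with the GSI. *HLA-B* (chr6:31321649-31334844, GRCh37, minus strand) had 7.36, 7.55 and 7.65 with TAS1440 and 3.00, 1.56 and 1.85 with TAS1440 plus GSI (-5.38, SE 0.558, adjusted *P* = 8.38e-06), and 0.69 to 1.42 with DMSO. *HLA-C* fell from 8.05, 8.29 and 8.48 to 6.22, 5.39 and 5.72 (-2.50), overlapping the DMSO libraries (5.58 to 6.09), and *HLA-E* by 3.39. HLA genes are near copies of each other, and how the authors' counting split reads between them is not known. *B2M*, the invariant light chain, fell from 8.90, 8.31 and 8.99 to 6.17, 5.61 and 5.64 (-2.93, SE 0.299, adjusted *P* = 7.59e-06). The peptide pump *TAP1* had 3.72, 3.45 and 3.67 and then 1.22, 0.75 and 0.86 (-2.67), above 0.08 to 0.41 with DMSO, and its partner *TAP2* had a difference of -1.67. Immunoproteasome subunits fell as well, *PSMB9* from 6.05, 6.71 and 7.20 to 3.46, 2.56 and 2.15 (-3.93), *PSMB8* by 1.88 and *PSMB10* by 1.35. Of 19 tested genes, limma called 13 lower and none higher, and all 19 differences were negative, with a median of -1.23 (18 lower and none higher at an unadjusted *P* under 0.05). Those lower also included *NLRC5* (-1.17), the transactivator of MHC class I, and *IRF1* (-1.22).

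Promoters of *B2M*, *TAP1* and *HLA-B* are shown, again as the 250 bases before the gene start in RefSeq sequence of GRCh38.p14, because interferon regulatory factors and NF-κB act on such promoters. They were chosen after the values had been seen. Capitals mark the interferon-stimulated response element (ISRE), read as GAAA, any 2 bases and GAAA, and the κB motif, read as GGGA, any 4 bases and CC, on either strand, and matches that overlap run together.
B2M promoter, chr15:44711267-44711516, plus strand: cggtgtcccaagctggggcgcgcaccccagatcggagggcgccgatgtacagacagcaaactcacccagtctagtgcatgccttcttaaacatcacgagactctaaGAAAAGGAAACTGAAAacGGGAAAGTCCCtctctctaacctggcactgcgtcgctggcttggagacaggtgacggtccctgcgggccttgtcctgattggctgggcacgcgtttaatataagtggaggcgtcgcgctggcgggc
TAP1 promoter, chr6:32853705-32853954, minus strand: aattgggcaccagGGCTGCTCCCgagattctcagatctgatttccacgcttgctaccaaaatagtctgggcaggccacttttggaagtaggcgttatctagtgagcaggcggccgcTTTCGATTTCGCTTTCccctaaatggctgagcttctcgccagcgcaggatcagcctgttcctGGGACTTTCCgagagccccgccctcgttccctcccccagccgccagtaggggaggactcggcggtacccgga
HLA-B promoter, chr6:31357180-31357429, minus strand: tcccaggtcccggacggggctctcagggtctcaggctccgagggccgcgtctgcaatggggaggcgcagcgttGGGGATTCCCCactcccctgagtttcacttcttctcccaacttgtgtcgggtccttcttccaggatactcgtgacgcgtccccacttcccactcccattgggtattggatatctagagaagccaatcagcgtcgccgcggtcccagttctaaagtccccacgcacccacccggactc
*B2M* and *TAP1* each held 2 overlapping response elements and 2 κB matches, and *HLA-B* held 2 overlapping κB matches and no exact response element. In *B2M* the pair of response elements began 144 and 138 bases and the κB matches 126 and 125 bases before the gene start. The response element was found in 3.07% of all promoters of this length, in 2.14% of 9846 promoters of tested genes, in 7 of 21 antigen presentation genes and in 26 of 46 interferon-stimulated genes (56.5%). It was in 43 of 1019 promoters of genes lower with the GSI (4.22%) and in 2 of 381 of genes higher (0.525%), and the κB motif in 22.1% of all promoters, 27.6% of those of tested genes, 33.6% of the lower and 29.9% of the higher. The share among the higher genes was thus near that of the tested genes. The promoter table had no entry for *STING1*.

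**Figure D4:**
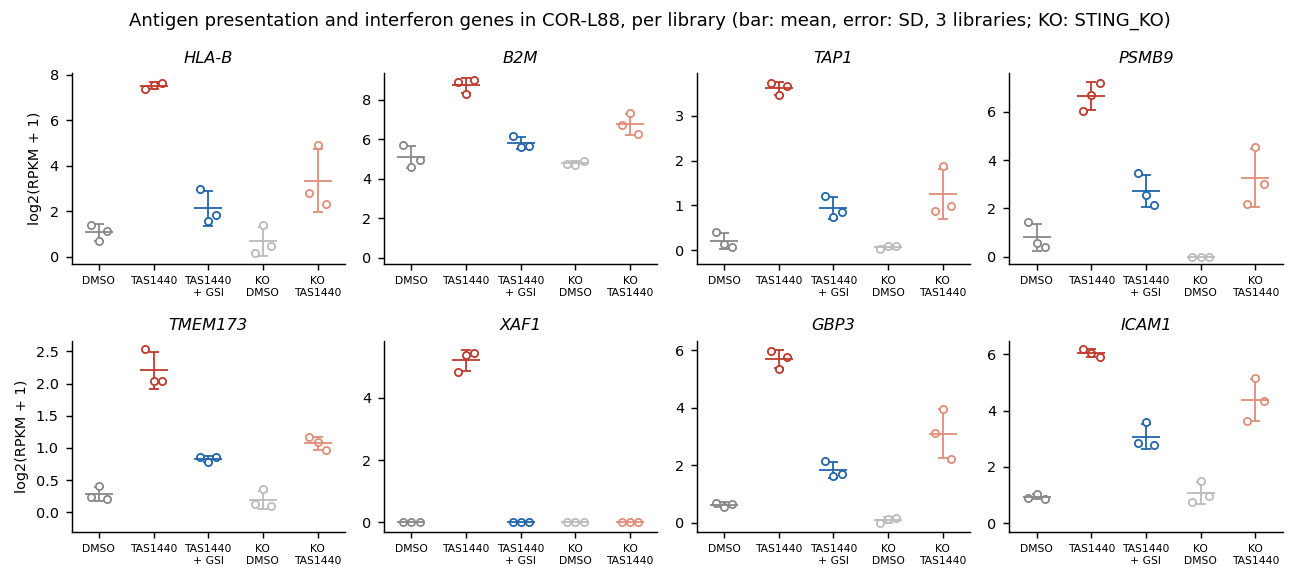
Each panel shows 1 gene in 5 groups of 3 COR-L88 libraries, with DMSO, TAS1440 and TAS1440 plus GSI in unmodified cells and DMSO and TAS1440 in STING_KO cells (KO), as open circles with the mean and SD on a y axis of log2(RPKM + 1). In all 8 panels the TAS1440 libraries of unmodified cells are the highest and no TAS1440 plus GSI library reaches them, and *XAF1* is above 0 only with TAS1440 in unmodified cells.

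*STING1* (chr5:138855118-138862520, GRCh37), listed as *TMEM173*, encodes the adaptor through which the DNA sensor cGAS signals. It had 2.54, 2.04 and 2.03 with TAS1440 and 0.86, 0.78 and 0.86 with TAS1440 plus GSI (-1.37, SE 0.140, adjusted *P* = 7.46e-06), and 0.20 to 0.41 with DMSO. These levels are low, and the TAS1440 plus GSI libraries lay between the other groups. *MB21D1*, the older symbol of cGAS, was 4.03, 3.68 and 3.74 and then 3.31, 3.04 and 3.02 (-0.69, not called). *TLR3*, a receptor for double-stranded RNA, fell from 2.23, 3.80 and 4.23 to 0.92, 1.74 and 0.66 (-2.32), and the RNA sensors *IFIH1* (-1.10) and *DHX58* (-1.33) also fell. Downstream of these sensors, *TBK1* (-0.12), *IRF3* (-0.05) and *MAVS* (-0.07) had overlapping groups, while *STAT3* (-1.42), *IRF9* (-1.14) and the receptor chain *IFNGR1* (-1.74) were lower. Of 27 tested genes of nucleic acid sensing and interferon signaling, limma called 8 lower and none higher, with a median of -0.72 (20 lower and none higher at an unadjusted *P* under 0.05).

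Interferon-stimulated genes were lower with the GSI more broadly. Of 58 listed, 39 were tested, and of these 30 were lower and 1, *TRIM14* (1.16), was higher, with a median of -1.57. Members such as *XAF1*, *GBP2* and *SAMD9L* had means under 1 with DMSO and with TAS1440 plus GSI. Such members passed the filter through other libraries and could hardly come out higher, which limits what the count shows. *XAF1*, an interferon-induced promoter of apoptosis, had 4.83, 5.37 and 5.44 with TAS1440 and was listed at 0 in all TAS1440 plus GSI and all DMSO libraries. Guanylate-binding proteins, GTPases induced by interferon, fell, with *GBP3* at 5.98, 5.37 and 5.78 and then 2.16, 1.64 and 1.69 (-3.88) and *GBP1* lower by 2.64 and *GBP2* by 2.84. *CXCL10*, a T cell chemokine, did not pass the filter, with 0.00, 0.19 and 0.38 against 0.12, 0.00 and 0.00. Of 22 tested cytokines and NF-κB genes, limma called 12 lower and none higher, with a median of -1.13 (20 lower and none higher at an unadjusted *P* under 0.05). *IL32* fell from 7.41, 5.83 and 4.92 to 3.77, 2.01 and 2.36 (-3.34) and *ICAM1*, the adhesion ligand of T cells, from 6.19, 6.05 and 5.91 to 2.84, 3.59 and 2.79 (-2.98). The death ligand *TNFSF10* (-3.21), the NF-κB inhibitor *TNFAIP3* (-2.72) and *CXCL2* (-2.32) were lower too.

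Sterol and fatty acid synthesis genes, which SREBP factors control, were higher with the GSI. Of 22 tested, limma called 9 higher and none lower, with a median of 0.80 and all differences positive (17 higher and none lower at an unadjusted *P* under 0.05). *DHCR7*, the last enzyme of cholesterol synthesis, had 3.76, 3.89 and 4.01 with TAS1440 and 7.28, 7.11 and 7.11 with TAS1440 plus GSI (3.28, SE 0.350, adjusted *P* = 1.02e-05), and 4.83 to 5.18 with DMSO. The TAS1440 plus GSI libraries exceeded both other groups. *SCD*, a fatty acid desaturase, rose from 3.67, 3.84 and 4.27 to 5.91, 6.58 and 6.40 (2.37) and *INSIG1*, the sterol sensor partner, from 4.28, 4.41 and 4.65 to 6.16, 6.63 and 6.30 (1.92), near their DMSO values. Fatty acid synthase *FASN* (1.59), the cholesterol carrier *STARD4* (1.73), *FDFT1* (1.58), *HMGCS1* (1.27), *SQLE* (1.11) and *SREBF2* (1.07) made up the rest of those called.

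Proliferation genes were mostly higher by less than the threshold. Of 30 cell cycle genes 3 were called higher and 1 lower, with a median of 0.57. Differences were negative for 3 of the 30, beside 6996 of all 13134 tested genes. At an unadjusted *P* under 0.05, 19 were higher and 2 lower, a count without the share of all tested genes at that cut. With median-centred libraries limma called 6 higher and none lower, and the call of *CCNE1*, cyclin E1 (-1.03), was lost there (-0.89) and without library 13 (-0.995), 17 (-0.96) or 18 (-0.94). *BIRC5*, survivin (1.07), was not called without library 13 (0.88) or 18 (0.98), and *CENPF*, a kinetochore protein, rose by 1.36. *TOP2A*, a topoisomerase of dividing cells, rose from 3.68, 4.35 and 4.40 to 5.57, 5.51 and 5.72 (1.45), and *MKI67* had 5.52, 6.60 and 5.93 and then 6.82, 6.78 and 6.91 (0.82, adjusted *P* = 0.0221, not called). The CDK4 and CDK6 inhibitor gene *CDKN2B* fell from 3.59, 3.64 and 3.75 to 1.18, 1.11 and 0.97 (-2.57, SE 0.246, adjusted *P* = 5.08e-06), to DMSO values of 0.98 to 1.13. *CDK6* fell from 6.51, 6.26 and 5.97 to 4.03, 3.68 and 3.74 (-2.43). *CDKN1A*, p21, had overlapping groups at 5.55, 6.29 and 6.38 and 5.90, 5.90 and 5.46 (-0.32, adjusted *P* = 0.408), all above DMSO. Of 13 CDK inhibitors, D cyclins and their kinases, limma called 4 lower and none higher (5 lower and 4 higher at an unadjusted *P* under 0.05). Of 21 genes of the integrated stress response 2 were higher and 1 lower, and each of these calls was lost when some single libraries were left out. *ASNS*, asparagine synthetase (1.46), was not called without library 13 (1.30), 14 (1.44), 17 (1.35) or 18 (1.22). *DDIT4*, a stress-induced inhibitor of mTORC1 (1.77), was not called without library 13 (1.56) or 18 (1.58), and *PPP1R15A* (-1.13) fell short without library 13 (-0.99) and with median-centred libraries (-0.998).

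Membrane proteins that gamma-secretase cuts besides Notch were looked up as a list of their own. Of 22 tested, limma called 6 lower and none higher, with a median of -0.60 (14 lower and 2 higher at an unadjusted *P* under 0.05). *SDC3*, a heparan sulfate proteoglycan, had 3.94, 6.12 and 6.18 with TAS1440 and 2.96, 2.29 and 2.66 with TAS1440 plus GSI (-2.77, adjusted *P* = 0.000624), and the amyloid precursor-like genes *APLP1* (-1.71) and *APLP2* (-1.10) were lower, the latter below the fold threshold after quantile normalization (-0.99) or median-centring (-0.96). *CD44* and *CDH1*, described above, belong to this list too, and *SORL1*, a sorting receptor at the edge of the fold threshold (-1.002), is the sixth member called lower.

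Of the 15 genes with the largest falls, *TGFBI*, *HLA-B* and *XAF1* are described above. *COL17A1*, a hemidesmosome collagen, had 7.38, 7.58 and 8.13 with TAS1440 and 2.87, 2.04 and 2.06 with TAS1440 plus GSI (-5.37). The complement protease *CFI* (-5.12), the glutathione peroxidase *GPX3* (-4.97), the actin crosslinker *FLNC* (-4.64), *S100A10* (-4.64), *MGP* (-4.58), *EMP1* (-4.55), *ZBED2* (-4.50), the phosphate transporter *SLC34A2* of alveolar cells (-4.49) and the Wnt antagonist *FRZB* (-4.45) followed. *GKN2*, a gastrokine, had the largest SE of the 15 (-4.56, SE 1.45, adjusted *P* = 0.0200), and the adjusted *P* was 0.0575 without library 13, 0.0550 without library 14 and 0.0676 without library 17.

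Among the genes highest with the GSI, a part was as high with DMSO and a part was not. *RNF186* had 1.79, 1.89 and 1.50 with TAS1440, 6.89, 7.11 and 7.19 with TAS1440 plus GSI (5.34) and 6.93 to 7.41 with DMSO. *DBH* had 0.00, 1.28 and 0.41, then 5.75, 5.93 and 5.85 (5.28), and 6.82 to 6.96 with DMSO. *CACNA1A*, a neuronal calcium channel, stayed far from its DMSO values of 10.43 to 10.88, with 1.30, 1.05 and 0.90 and then 4.76, 5.18 and 4.62 (3.77). A different set exceeded all DMSO and all TAS1440 libraries. *LCN10*, a lipocalin, had 2.88, 3.30 and 2.95 with TAS1440, 8.39, 8.03 and 7.84 with TAS1440 plus GSI (5.04) and 2.50 to 3.19 with DMSO. The mucin *MUC4* had 2.07, 3.43 and 2.62 and then 7.71, 7.36 and 7.44 (4.80), with 1.50 to 1.72 in DMSO libraries. The lipid droplet coat genes *PLIN5* and *PLIN4* were below 1 in all DMSO and TAS1440 libraries and rose to 4.74, 5.39 and 4.87 (4.30) and 3.96, 4.71 and 4.14 (3.76). *ENTPD2*, an ectonucleotidase (4.48), *C1orf95* (4.30), *BAI1*, an adhesion receptor (4.23), the lipase *CEL* (4.04), *NPPC*, a natriuretic peptide (3.70), and *NOTCH1* were also above all DMSO and TAS1440 libraries. In STING_KO cells, *PLIN5* had 0.17, 0.54 and 0.19 with DMSO and 3.67, 2.64 and 3.40 with TAS1440. *LCN10* had 2.70, 3.76 and 3.36 there with DMSO and 6.20, 4.54 and 6.11 with TAS1440. These TAS1440 libraries of STING_KO cells lay above the TAS1440 libraries of unmodified cells for both genes.

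The 1367 genes lower and 568 genes higher with the GSI were looked up in libraries that belong to neither group. In STING_KO COR-L88, TAS1440 raised 10.2% and lowered 5.79% of tested genes against DMSO. Of the genes lower with the GSI 671 were higher there (49.1% of them and 49.9% of all genes higher there), and of the genes higher with the GSI 182 were lower there (32.0% of them and 23.9% of all genes lower there). *CD44* and *XAF1* were not among them, since *CD44* had 0.06, 0.00 and 0.00 in STING_KO TAS1440 libraries and *XAF1* was listed at 0 in all of them. *HLA-B* had 2.80, 4.91 and 2.31 there, and *TGFBI* 2.60, 4.15 and 1.15, values that lay below all unmodified TAS1440 libraries. *TMEM173*, the targeted gene, had 1.16, 1.09 and 0.96 with TAS1440 in STING_KO cells and 0.12, 0.36 and 0.10 with DMSO, so its transcript was still counted. RNA does not show whether the protein was lost, for which the study has an immunoblot of single-cell knockout clones of COR-L88. The STING_KO cells are clones, so clone and genotype cannot be told apart.

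KP1, a mouse SCLC line, was given TAS1440 with and without a GSI as well, though another one (DBZ at 10 μM) and for over 28 days. Genes were matched by symbol without regard to case. Of 8260 genes tested in KP1, 8.5% were lower and 8% higher with the GSI. Among genes tested in both lines, 237 of 516 genes lower in COR-L88 were lower in KP1 (45.9%, beside 8.15% of all 6880) and 60 of 209 genes higher in COR-L88 were higher in KP1 (28.7%, beside 6.95%), which is 42.2% of the 561 genes lower and 12.6% of the 478 genes higher in KP1 among those 6880. *Hes1* had a log2 fold change of -4.09 in KP1, *Insm1* 5.57, *B2m* -4.40, *Vim* -8.18 and *Yap1* -1.46. *Notch2* was lower in KP1 (-1.45) and *Rest* too (-1.13), where neither human gene was called in COR-L88. *Chga* (4.37) and *Syp* (2.62) were higher with the GSI in KP1, where the human genes were not called in COR-L88. Of the mesenchymal genes, 31 of 31 tested in KP1 were lower, beside 28 of 43 in COR-L88. Of the neuroendocrine genes, 16 of 19 were higher in KP1, beside 6 of 26 in COR-L88. Of the antigen presentation genes, limma called 3 of 13 lower and none higher in KP1, beside 13 of 19 lower in COR-L88. At an unadjusted *P* under 0.05, 8 of these 13 were lower in KP1 and none was higher. HLA genes and mouse H2 genes share no symbols, so neither was among the 13. None of 18 sterol synthesis genes was called in KP1 by limma, and 0 of 18 had an unadjusted *P* under 0.05 (median 0.31), beside 9 of 22 higher in COR-L88. Of the epithelial genes, limma called 12 of 17 higher and none lower in KP1 (14 higher and none lower at an unadjusted *P* under 0.05), beside none higher and 5 lower of 22 in COR-L88. Agent, species, line and time differ between these experiments, and the difference was not tested.

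**Figure D5:**
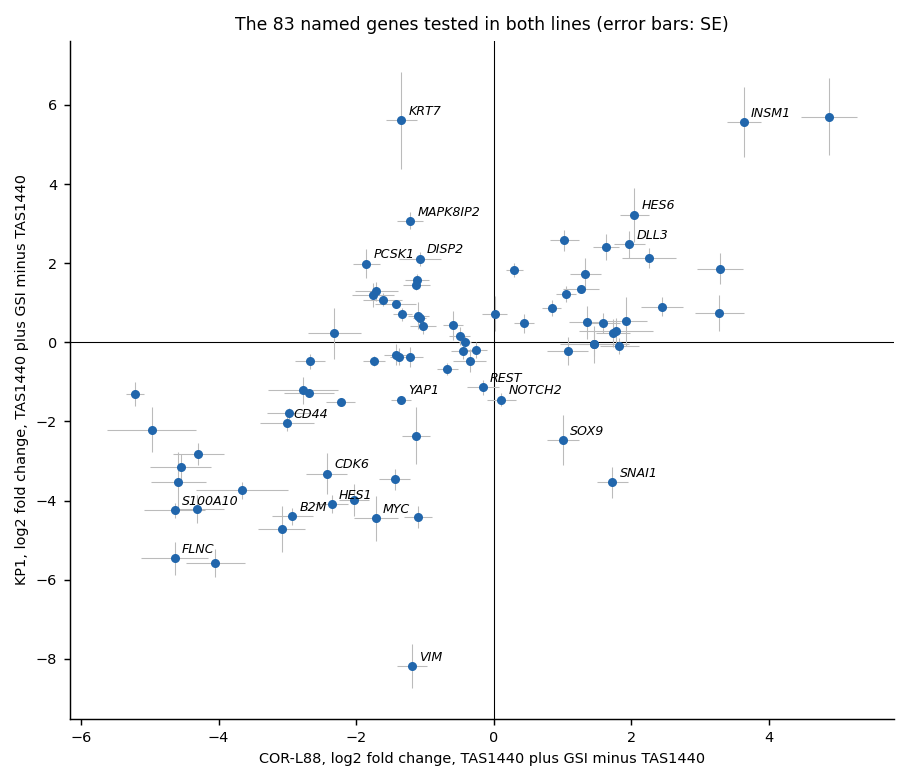
Each point is 1 of the 83 named genes tested in both lines, with the log2 fold change of TAS1440 plus GSI against TAS1440 in COR-L88 on the x axis and in KP1 on the y axis, and error bars are SE. *INSM1* lies at the upper right, *FLNC*, *B2M* and *HES1* at the lower left, and *KRT7* and *SNAI1* lie in opposite corners.

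In other human lines doxycycline switches on the *NOTCH1* intracellular domain without TAS1440 or a GSI, and their calls are set beside those of COR-L88. Per the study's methods, adherent cells of these lines were collected after 28 days or more of doxycycline. Line, treatment, time and this selection differ from the COR-L88 comparison, and the overlap was not tested. Doxycycline raised 14.7% of all tested genes in H82, 11.4% in H524 and 21.4% in H69, and lowered 12.4%, 7.19% and 20.4%. Of the genes lower with the GSI in COR-L88, 541 of 1180 tested were higher with doxycycline in H82 (45.8%, beside 13.5% of the genes tested in both lines). In H524 these were 417 of 1126 (37.0%, beside 9.91%) and in H69 541 of 1184 (45.7%, beside 20.0%). Of the genes tested in both lines and raised by doxycycline they made up 33.3% in H82 (of 1624), 34.9% in H524 (of 1195) and 22.5% in H69 (of 2404). Of the genes higher with the GSI, 133 of 457 were lower with doxycycline in H82 (29.1%, beside 11.8%), 98 of 474 in H524 (20.7%, beside 6.27%) and 247 of 476 in H69 (51.9%, beside 18.3%), which is 9.35%, 13.0% and 11.2% of the genes tested in both lines and lowered there. In H82, H524 and H69 in turn, *HLA-B* had log2 fold changes of 4.77, 5.49 and 7.19 with doxycycline. *HES1* had 4.18, 4.11 and 0.52, and *TGFBI* had 3.34, -2.99 and 3.56, and the lines did not share a direction for *TGFBI*.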

How the data were processed

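RNA of 6 COR-L88 libraries, 3 with TAS1440 and 3 with TAS1440 plus GSI, was compared, with 9 further COR-L88 libraries in the same fit. Per the study's methods, the authors trimmed paired-end reads of poly(A) RNA with Cutadapt, aligned them with STAR to hg19, quantified genes with RSEM, scaled RPKM values by TMM in edgeR and deposited log2(RPKM + 1) per gene and library; tool versions are not given in the sources used here. The deposited log2 values hold no read counts, so that depth is known only as relative library size, and no interval for counting error is given. The labels give neither dose nor time.

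limma 3.58.1 (R 4.3.3) fitted a mean for each group and a variance trend to genes that reached a log2 value of 1 in 3 or more of the 15 libraries. *P* values were adjusted by the Benjamini-Hochberg method over all 13134 genes, and calls needed an adjusted *P* under 0.05 together with a difference of 1 or more in either direction. On simulated data of the same size, 52% of genes changed by 1 and 98% of those changed by 2 on the log2 scale were called, and 0.00773% of unchanged genes. The changed genes were drawn from those with a mean log2 value of at least 3 with TAS1440. The rates for changed genes therefore do not cover genes with lower values. KP1 and the doxycycline lines were fitted separately in the same way, and mouse and human genes were matched by upper-case symbol.

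The gene lists and the comparison itself were chosen with earlier results of these data known. Named genes were the study's marker genes, the 15 genes with the largest change in each direction among called genes whose groups did not overlap and whose higher group had a mean of 2 or more, up to 5 called members of each list in each direction, and every tested Notch receptor, ligand, target and gamma-secretase subunit. *MYCL*, *MKI67*, *CDKN1A*, *EPCAM*, *SCG2*, *ZEB1* and others given without a call were chosen after their values were seen. GRCh37 positions were from a GENCODE annotation lifted to that build, and promoter sequences were from a RefSeq table of GRCh38.p14 with 35116 entries, the first of which was taken for each of 27305 symbols. Tables, motif searches and plots were made with Python 3.11.15, pandas 2.3.3, numpy 2.4.6 and matplotlib 3.10.9. Alternatives were other filters, a pseudocount of 0.1, quantile and median scaling, fewer groups in the fit, no variance trend and leaving out each library. Some genes that the rule would name are not reported here.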

Additional observations from a re-analysis of the deposited data

Results flagged for a closer look

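Of 148 named genes tested in COR-L88, 83 were also tested in KP1, and for 15 of them every TAS1440 plus GSI library lay on one side of every TAS1440 library in COR-L88 and on the opposite side in KP1. The same count over all 6880 genes tested in both lines was not made, so there is no background for the 15. The difference between the lines was not tested, and GSI, species and time differ between them. *SNAI1* had a log2 fold change of 1.72 in COR-L88 and -3.54 in KP1, and *SOX9* 1.01 and -2.48. The other 13 were lower in COR-L88 and higher in KP1. Among epithelial genes, *KRT7* had -1.34 and 5.61, *PRSS8* -1.61 and 1.08, *ST14* -1.12 and 1.56 and *CDH1* -1.33 and 0.70. Among neuronal and secretory genes, *MAPK8IP2* had -1.22 and 3.07, *DISP2* -1.07 and 2.11, *PCSK1* -1.85 and 1.98, *SYT7* -1.12 and 1.44, *L1CAM* -1.76 and 1.20 and *CPLX1* -1.43 and 0.97. *APLP1* had -1.71 and 1.29, *APLP2* -1.10 and 0.67 and the corepressor *CTBP2* -1.08 and 0.60. In KP1, the adjusted *P* of limma was 0.159 for *APLP2* and at most 0.0148 for the other 14 genes. In COR-L88, *ST14*, *SYT7*, *DISP2*, *APLP2* and *CTBP2* were not called with median-centred libraries (-0.98, -0.99, -0.94, -0.96 and -0.94).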

How the results depend on the processing

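No named gene that was called, as reported or under an alternative, changed direction between the reported fit and that alternative. Genes called in neither fit were not checked for direction, and small differences such as that of *NOTCH2* can change sign. The numbers of genes called lower and higher were 1284 to 1436 and 516 to 657 when 1 library was left out, and 1682 and 853 with a pseudocount of 0.1. With that pseudocount, genes called lower were 2 of the ligands (1 as reported), 10 of the other gamma-secretase substrates (6), 6 of the neuroendocrine genes (3) and 3 of the stress response genes (1). Quantile normalization and median-centring both gave 3 lower Notch target genes (5 as reported), 0 lower genes of the REST and LSD1 complexes (1), and 0 lower and 6 higher cell cycle genes (1 and 3). Median-centring also gave 3 lower neuronal genes (5) and 0 lower stress response genes (1). Without 1 library, lower counts were 3 to 5 for Notch targets, 0 to 1 for REST and LSD1 complexes, 0 to 1 for the cell cycle and 0 to 2 for the stress response, and higher counts were 1 to 2 for Notch targets, 2 to 6 for the cell cycle and 0 to 3 for the stress response. The cause was not tested, apart from the fewer libraries.

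Of 148 tested named genes, 9 lost their call with median-centring, 6 with quantile normalization and 2 to 8 without 1 library. No paired analysis was possible because the library numbers in the labels differ between the groups. Without read counts, the precision of low values is not known.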
